A study of Triticum aestivum with 9 samples.

Results

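Among the 130542 genes in the deposited expression table, 5 make up the PYR/PYL group of ABA (abscisic acid) receptors. They carry the name PYR/PYL in the study's table of hormone signaling genes, which holds 98 genes, and they were looked up by identifier in all 9 RNA-seq libraries. That table lists genes the study had called different between DTT-treated and control leaves in these same libraries. The 5 genes were thus chosen by their lower levels under DTT in these libraries, and those levels are given here as a description, with no test. Receptor genes that were not in that table were not analysed here.

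The libraries came from leaves of Triticum aestivum seedlings of the cultivar Yunong211 on day 2 of treatment, with 3 independent biological replicates in each of 3 groups. Control seedlings (C) grew in nutrient solution with no chemical added, DTT seedlings (D) received DTT, and DTT + TUDCA seedlings (T) received both agents together. DTT (dithiothreitol) is a reducing agent that hinders disulfide bond formation and induces stress of the endoplasmic reticulum (ER), and TUDCA (tauroursodeoxycholic acid) is a chemical chaperone used to relieve it. No library of TUDCA alone was analysed here, so T vs. D compares TUDCA only on top of DTT.

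ABA is the hormone through which plants respond to water deficit and close their stomata. PYR/PYL proteins (PYRABACTIN RESISTANCE 1 and PYR1-LIKE, named in Arabidopsis) are soluble receptors that, once they hold ABA, bind and inhibit the PP2C protein phosphatases. PP2Cs otherwise keep the SnRK2 protein kinases inactive, and freed SnRK2 kinases phosphorylate the ABF transcription factors, which bind ABA-responsive elements in the promoters of target genes. The receptors and SnRK2 kinases thus act positively in the pathway, and the PP2C phosphatases act negatively. In Arabidopsis, ABA is known to raise the transcripts of many PP2C genes and to lower those of several PYR/PYL genes.

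Expression is given as FPKM (fragments on a gene relative to its length and to the mapped fragments of the library), divided by a factor per library, and is called scaled FPKM. The factor is the median, over genes, of the ratio of the library's value to the geometric mean of all libraries. The library totals implied by the FPKM values, which are close to the fragments on genes, ran from 16334906 to 26760247 fragments. They are not the numbers of reads sequenced. The 24 genes of the oxygen evolving complex of photosystem II, taken as markers of green leaf, were summed to scaled FPKM of 9661 to 13187 in C, 4568 to 4754 in D and 5033 to 5652 in T, and 18 of them were above 1 in every library. The summed level was thus also lower under both treatments, though not every gene was. In D vs. C, 18 of the 24 were called lower and 4 higher, and in T vs. C 10 lower and 5 higher. These 24 genes were taken from those the study itself had called different, so their direction is not independent, and their part in the receptor values was not tested. DTT + TUDCA replicate 2 stood apart. Of 54973 genes with a mean of at least 1, 2184 lay over 4-fold away from the average of its 2 sister replicates in that library, against 143 to 332 in each of the other 8. The fitted changes of the receptors in T vs. C and T vs. D are given with and without it. Group means, sums, shares, ratios and likeness that involve T include it. In whole leaves, fewer cells of a type and less RNA per cell cannot be told apart.

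The identifiers place the receptors on 5 chromosome arms. Traes_2BS_6428AA6CC and Traes_2DS_9A99C3160 lie on the short arms of 2B and 2D, and Traes_4AS_72BEF89AC, Traes_4BL_E43C1BB11 and Traes_4DL_3A1814A74 on 4AS, 4BL and 4DL. Bread wheat carries A, B and D subgenomes, and because of an old rearrangement of chromosome 4A the arm 4AS corresponds to 4BL and 4DL. The arms thus allow a 2B/2D pair and a 4A/4B/4D trio, but whether the genes are homoeologous copies was not tested. How fragments shared by near-identical copies were assigned is not given in the sources used here, so the split of fragments between copies is uncertain.

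The 2BS gene had the highest scaled FPKM of the 5 in every library. In C it measured 49.3, 59.6 and 62.1 in replicates 1, 2 and 3, with a mean of 57.0 ± 6.79 (SD, n = 3). In D it measured 4.77, 12.6 and 6.66, with a mean of 8.0 ± 4.06 (SD, n = 3). In T it measured 14.2, 41.2 and 7.51, with a mean of 21.0 ± 17.9 (SD, n = 3). Every C library lay above every D and T library, and T overlapped D because T replicate 3 was below D replicate 2. The gene model is only 261 bp long, so these levels rest on 236 to 411 fragments in C, 28 to 67 in D and 34 to 185 in T.

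The 2DS gene, 873 bp long, had the next highest levels in C, at 21.8, 25.9 and 23.7, with a mean of 23.8 ± 2.07 (SD, n = 3). D libraries held 1.99, 3.42 and 2.23, with a mean of 2.55 ± 0.766 (SD, n = 3). T libraries held 4.74, 16.1 and 2.84, with a mean of 7.88 ± 7.15 (SD, n = 3). The order of the libraries within D and within T was that of the 2BS gene. The highest T library reached 67.5% of the C mean and the lowest 11.9%, and for the 2BS gene these shares were 72.4% and 13.2%.

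The 4DL gene, 1395 bp long, was the highest of the trio in C, where it measured 11.8, 16.5 and 12.8, with a mean of 13.7 ± 2.50 (SD, n = 3). It measured 0.478, 1.09 and 0.486 in D, with a mean of 0.684 ± 0.349 (SD, n = 3). In T it measured 1.40, 3.34 and 0.827, with a mean of 1.85 ± 1.32 (SD, n = 3). None of the T libraries came above 24.3% of the C mean, the lowest such ceiling among the 5 genes.

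The 4BL gene, 1205 bp long, measured 10.6, 12 and 9.03 in C, with a mean of 10.6 ± 1.49 (SD, n = 3). D libraries held 0.443, 0.771 and 0.246, with a mean of 0.487 ± 0.265 (SD, n = 3). T libraries held 1.54, 4.20 and 0.526, with a mean of 2.09 ± 1.90 (SD, n = 3). It was below the 4DL gene in each of the 3 C libraries, although the ranges of these neighbours over the C libraries overlapped.

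The 4AS gene, 1467 bp long, had the lowest level of the 5 in every library. It measured 3.23, 3.49 and 3.01 in C, with a mean of 3.24 ± 0.241 (SD, n = 3). In D it measured 0.0909, 0.233 and 0.0578, which correspond to 3, 7 and 2 fragments. In T it measured 0.918, 1.39 and 0.118, from 29, 35 and 3 fragments. The exact Poisson 95% interval of 2 fragments runs from 0.242 to 7.22 and that of 7 fragments from 2.81 to 14.4, so the D libraries of this gene cannot be ordered. These intervals cover counting error only.

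**Figure D1:**
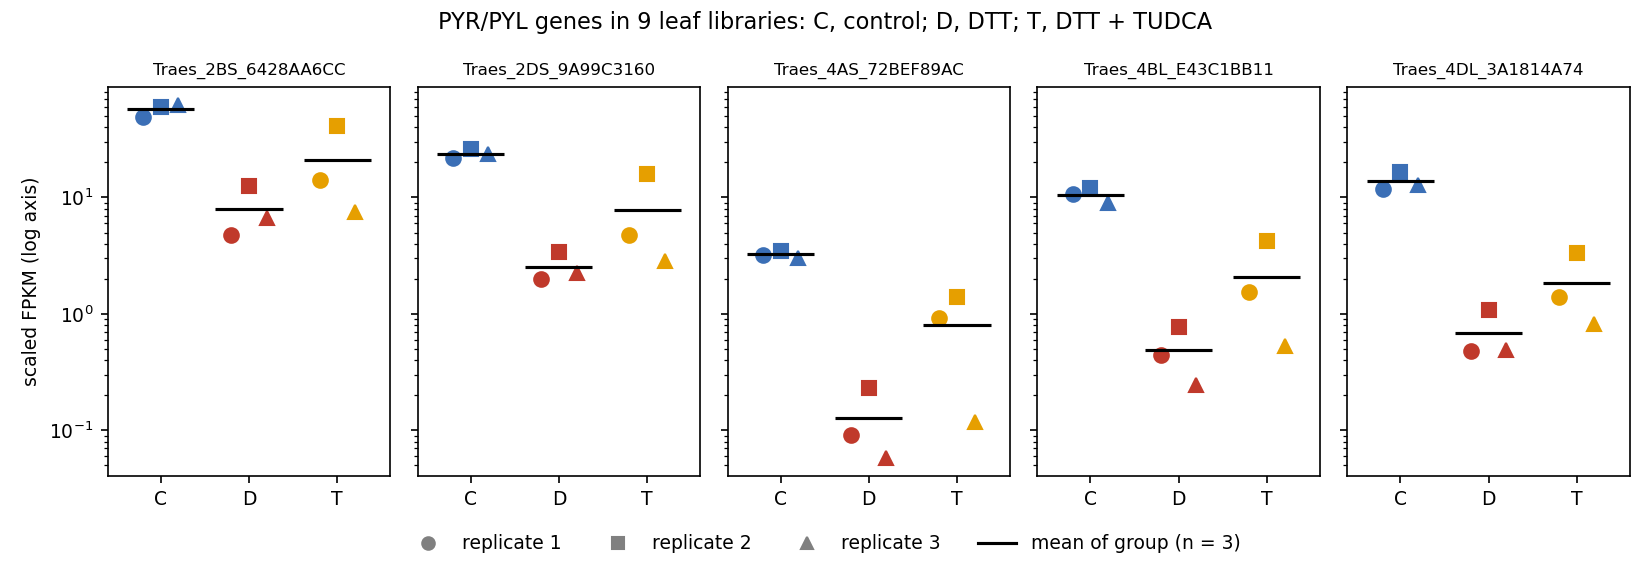
Scaled FPKM (log axis) of each PYR/PYL gene in the 3 control (C), 3 DTT (D) and 3 DTT + TUDCA (T) libraries, with symbols for the replicate and a line at the mean of each group. All C libraries lie above all D and T libraries in each panel, and T replicate 2 is the highest T library for each gene, at 41.2 for the 2BS gene and 1.39 for the 4AS gene.

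In C the levels of the 2BS and 2DS genes ranked above 97.6% and 93.1% of the 77974 tested genes. The 4DL gene ranked above 87.2%, the 4BL gene above 83% and the 4AS gene above 56.8%. In D the same genes ranked above 77.6%, 50.6%, 23.4%, 18.0% and 3.77%. The spread between replicates was narrow in C, with coefficients of variation of 7.43% to 18.2%, and wider in D, at 30.1% to 73.3%, and in T, at 71% to 90.8%.

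In D vs. C, the contrast that chose the genes, the C mean was 7.13-fold the D mean for the 2BS gene and 9.34-fold for the 2DS gene. For the trio the ratio was 20.1 for 4DL, 21.7 for 4BL and 25.5 for 4AS, the last resting on 12 fragments in D in all. Fitted on log2(scaled FPKM + 0.1), which understates changes of low genes, the log2 fold changes were -2.93 for 2BS, -3.21 for 2DS, -3.95 for 4AS, -4.21 for 4DL and -4.27 for 4BL. Their standard errors were 0.54, 0.51, 0.63, 0.46 and 0.60 in that order. With 1 added before the log2 in place of 0.1, the median over the 5 genes was -2.82 in place of -3.95. The study's thresholds were a P-value below 0.01, without adjustment, together with a log2 fold change of 1 or more in size. By these, 3.76% of all tested genes were called lower in D than in C, and 17.3% had every D library below every C library, as the 5 receptors did. Since the study used this contrast to list the 5 genes, nothing is read from their being among them. The 2BS gene was the least changed of the 5, and receptor genes just outside the study's threshold were not analysed here.

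T vs. C asks whether the receptor genes stayed below control level when TUDCA was given with DTT. The C libraries also entered the choice of the genes, so this test is not independent of it. All 5 genes were called down-regulated by limma at the same thresholds, where 3.52% of all tested genes were. The log2 fold changes were -1.78 ± 0.54 (SE) for 2BS, -1.96 ± 0.51 for 2DS, -2.27 ± 0.63 for 4AS, -2.69 ± 0.60 for 4BL and -3.02 ± 0.46 for 4DL. The C mean was 2.71-fold the T mean for 2BS and 7.40-fold for 4DL, and each of the 9 pairs of a C and a T library had the higher value in C for each gene. Such a lack of overlap, T below C, was found for 15.8% of all tested genes.

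With Benjamini-Hochberg adjustment over all tested genes, limma gave adjusted P = 0.0048 for 4DL, 0.026 for 4BL and 0.045 for 2DS. The 4AS gene had an adjusted P = 0.056 and the 2BS gene 0.073, so 3 of the 5 passed 0.05, against 2.41% of all tested genes. Same-numbered C and T libraries deviated together weakly, with r of 0.122 to 0.181, which does not show that they were paired. With the replicate number as a block all 5 passed 0.05, with limma adjusted P-values of 0.0020 to 0.039. In a blocked model of only the C and T libraries, added after the data were seen, 2 passed, with limma adjusted P-values of 0.013 for 4DL and 0.034 for 4BL. The calls depended on single libraries. With 1 control library left out, 3, 2 and 2 of the 5 were called (without replicates 1, 2 and 3), with the 2BS and 4AS genes lost each time and the 2DS gene lost without replicate 2 or 3. Without T replicate 1, 3 were called, as were 3 without T replicate 3 and 4 without D replicate 3. Without T replicate 2, the library that stood apart, all 5 were called and the changes were larger, from -2.44 for 2BS to -3.54 for 4DL. Over all tested genes, calls in either direction in T vs. C were 6145 with all libraries and 4774 to 7702 with 1 left out.

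T vs. D asks whether TUDCA moved the receptor genes in DTT-treated leaves. The genes were listed for being low in the same D libraries, which by itself favours a higher T mean, so this test is not independent of the choice either. The T mean was above the D mean for each of the 5, by 2.63-fold for 2BS, 2.71-fold for 4DL, 3.10-fold for 2DS, 4.29-fold for 4BL and 6.34-fold for 4AS. None passed the thresholds in limma, where 0.63% of all tested genes were called up-regulated. In limma 4 of the 5 had an unadjusted P-value under 0.05, for which the share over all tested genes was not counted. The log2 fold changes were 1.15 for 2BS (95% interval -0.05 to 2.35), 1.25 for 2DS (0.12 to 2.38) and 1.68 for 4AS (0.28 to 3.08). They were 1.59 for 4BL (0.25 to 2.92) and 1.19 for 4DL (0.17 to 2.21), and the adjusted P-values were 0.66 to 0.68. The intervals are for single genes, not adjusted for the number of genes tested, and reach beyond 2 for each of the 5.

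**Figure D2:**
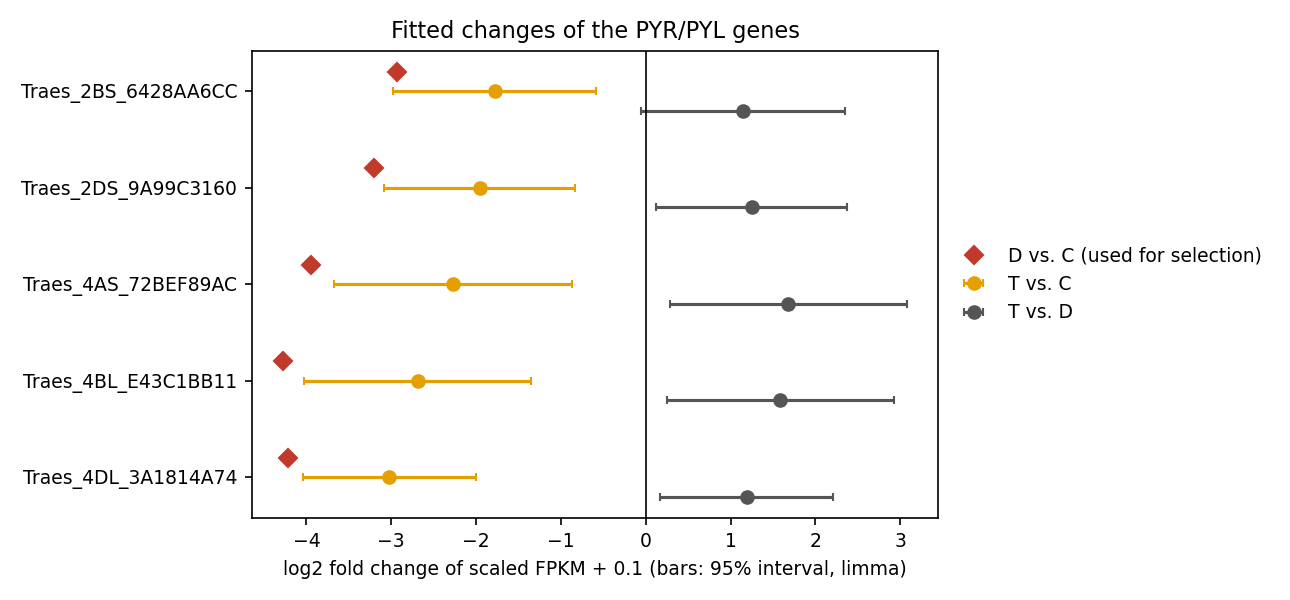
Fitted log2 fold changes of scaled FPKM + 0.1 for the 5 PYR/PYL genes. Points with bars give T vs. C and T vs. D with 95% intervals from limma, and diamonds give D vs. C, which chose the genes and is drawn without an interval; T vs. C lies between -3.02 and -1.78 and T vs. D between 1.15 and 1.68.

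The T vs. D values rested on which T libraries were used. Without T replicate 2 the log2 fold changes fell to 0.48 for 2BS, 0.55 for 2DS, 1.13 for 4AS, 0.89 for 4BL and 0.68 for 4DL, with none called. Without T replicate 3 they were 1.70, 1.78, 2.51, 2.28 and 1.62 for the same genes, and all 5 were called, with adjusted P-values of 0.29 to 0.52 in limma. Over all 77974 tested genes, calls in either direction in T vs. D were 852 with all libraries and 604 to 2180 with single libraries left out. The count in the fit without T replicate 3 lay within that range and is not given by itself, so the 5 calls have no share of their own beside them. With the replicate number as a replicate block in the model, the 4AS, 4BL and 4DL genes were called in T vs. D (adjusted P = 0.52, 0.48 and 0.48 in limma), although same-numbered D and T libraries did not deviate together. The share of all tested genes called with this block is not given here.

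The 3 T libraries took the same order for each of the 5 genes, with replicate 2 highest, replicate 1 next and replicate 3 lowest. The Poisson intervals of fragments as counted overlapped between replicates 1 and 2 for 4AS (29 and 35 fragments) and between replicates 1 and 3 for 4DL (42 and 20 fragments). Replicate 1 was the deeper library of the last pair, so correction for depth could add overlaps, which were not checked. Each library was placed on a log2 scale between the D mean, set to 0%, and the C mean, set to 100%. On it, T replicate 2 lay at 84.4% for 2BS, 82.5% for 2DS, 70.5% for 4AS, 69.6% for 4BL and 52.7% for 4DL. T replicate 1 lay at 24.3% to 56.7%, with a median of 32.2%, and T replicate 3 at 0.367% to 7.80%, with a median of 4.57%. Replicate 3 was thus close to the D mean for all 5 genes, and replicate 2 was over the midpoint for all 5.

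The 2934 genes called lower in D than in C did not show this order as a whole. Their medians were 19.7%, 23.4% and 29.0% in T replicates 1, 2 and 3, so replicate 3 was highest over them and lowest over the receptors. Over the 243 genes among them that were lowered at least as much as the 2BS gene, the medians were 27.0%, 24.7% and 23.0%, so there replicate 3 was the lowest too, over a narrow range. Among these 2934 genes the 5 receptors ranked above 74.6% to 89.7% in T replicate 2 and above 21.1% to 26.8% in T replicate 3. Among the 243 they ranked above 83.1% to 93.8% and above 27.6% to 34.2%. The 4 tested A-ARR genes lower in D, type-A response regulators that act in cytokinin signaling, had medians of 33.5%, 80.6% and 32.1%. The 8 PR-1 genes called lower in D, pathogenesis-related genes used as markers of salicylic acid signaling, had medians of 47.7%, -2.75% and 5.81%. In T replicate 2 the A-ARR and PYR/PYL medians thus lay toward the control end and the PR-1 median at the D level. The 25 PP2C, 14 SnRK2 and 9 ABF genes, most of them higher in D, had medians of 22.7%, 19.5% and 13.8% there. The receptors' high placing in that library cannot be told apart from whatever else set it apart.

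**Figure D3:**
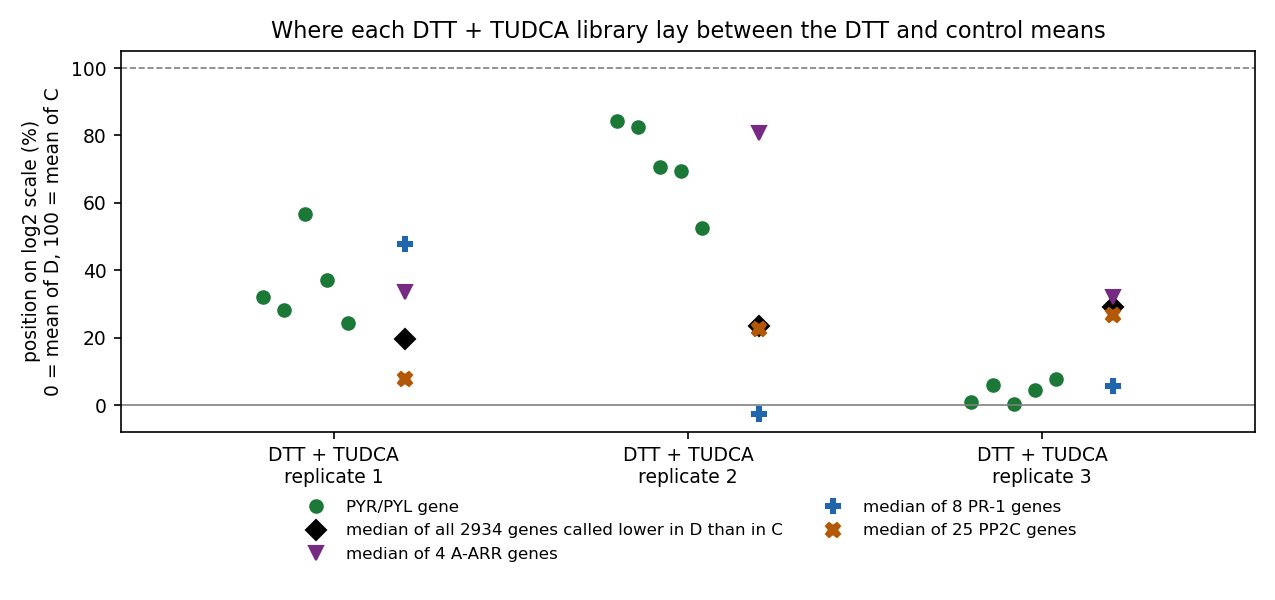
Position of each DTT + TUDCA library between the mean of D (0%) and the mean of C (100%) on the log2 scale. Green points are the 5 PYR/PYL genes in the order 2BS, 2DS, 4AS, 4BL, 4DL, and other symbols are medians of gene groups; in replicate 2 the receptors lie at 52.7% to 84.4% against a median of 23.4% over all 2934 genes called lower in D, and in replicate 3 at 0.367% to 7.80% against 29.0%.

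Among the D libraries, the measured value was highest in replicate 2 for each of the 5 genes. As counted, the exact Poisson 95% interval of its fragments overlapped that of another D library for each gene. These intervals were not corrected for library depth. For 2BS the overlap was small, at 51.9 to 85.1 fragments in replicate 2 against 29.4 to 55.6 in replicate 3, the deeper library. Whether it remains after correction was not tested. It held 22.0% of the C mean for 2BS, 14.4% for 2DS, 7.20% for 4AS, 7.31% for 4BL and 7.92% for 4DL. The other D libraries lay between 1.78% and 11.7% of the C mean. T replicate 3 lay below D replicate 2 for each gene, at 3.64% to 13.2% of the C mean.

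Summed over the 5 genes, receptor transcripts were at 96.7, 118 and 111 scaled FPKM in C, at 7.77, 18.1 and 9.68 in D and at 22.8, 66.2 and 11.8 in T. The means were 108 ± 10.6, 11.8 ± 5.48 and 33.6 ± 28.8 (SD, n = 3 each). The 2BS and 2DS genes gave 74.6% ± 2.57 of this sum in C, 89.1% ± 2.50 in D and 85.7% ± 2.33 in T (SD, n = 3). The trio's share was thus smaller in all 6 treated libraries than in the 3 control libraries, and its sum went from 27.5 ± 3.94 in C to 1.30 ± 0.697 under DTT and 4.75 ± 3.81 under DTT + TUDCA (SD, n = 3). All these sums are per length and lean on the 261 bp model of the 2BS gene. By fragments over the C libraries, 2BS had 893, fewer than 2DS with 1231 and 4DL with 1121.

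Within the 2B/2D pair, the 2BS gene gave 70.5% ± 1.68 of the sum in C, 74.7% ± 4.01 in D and 73.2% ± 1.63 in T (SD, n = 3). The libraries of the 3 groups overlapped. Within the trio, the 4DL gene gave 49.7% ± 3.25, 53.6% ± 7.27 and 43.3% ± 11.2 in C, D and T (SD, n = 3). The 4BL gene gave 38.4% ± 2.68, 37.3% ± 6.31 and 40.9% ± 5.70 (SD, n = 3). The 4AS gene gave 11.9% ± 0.877 in C and 9.15% ± 1.93 in D (SD, n = 3). In T its share was 23.8%, 15.6% and 8.02% in replicates 1, 2 and 3, so the T libraries lay on both sides of the control range, the last of them from 3 fragments. No share within the pair or the trio separated the 3 groups.

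**Figure D4:**
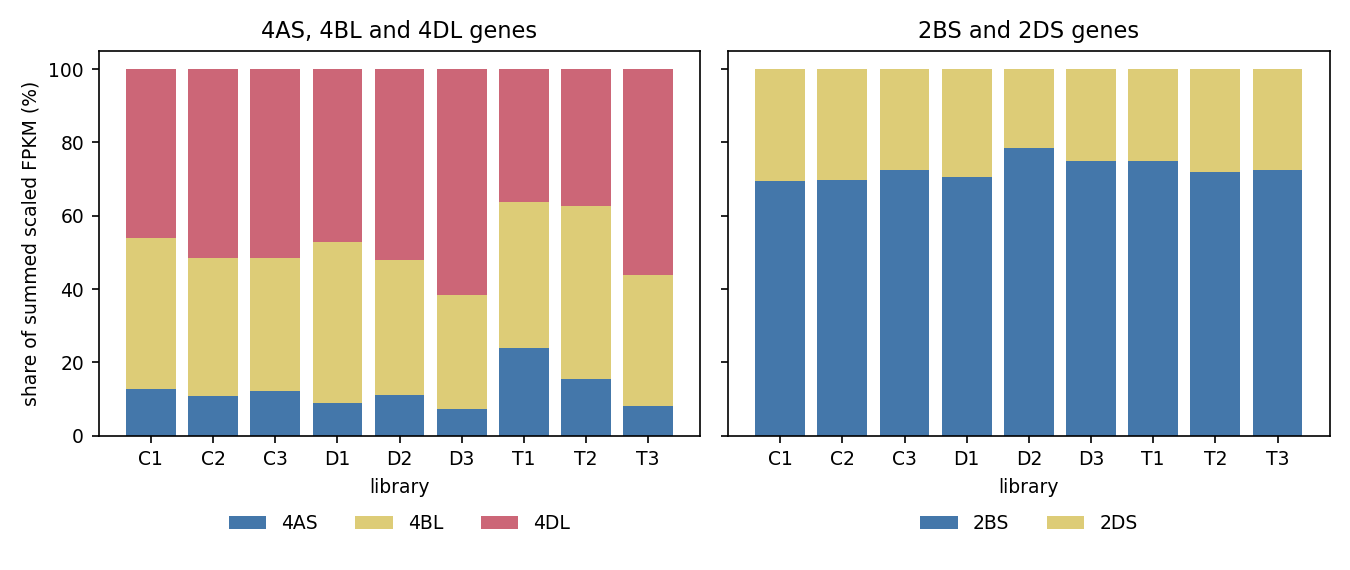
Share of each gene in the summed scaled FPKM of the 4AS, 4BL and 4DL genes (left) and of the 2BS and 2DS genes (right) in each library (C, control; D, DTT; T, DTT + TUDCA, with the replicate number). The 2BS share stays between 69.3% and 78.6% in all 9 libraries, and the 4AS share is highest in T replicate 1, at 23.8%.

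The partners of the receptors were read from the same hormone table, whose 25 PP2C, 14 SnRK2 and 9 ABF genes the study also chose on D vs. C in these libraries. Their D vs. C direction is therefore not independent evidence. Of the 25 PP2C genes, 24 were called higher in D than in C and 1 lower, where 4.26% of all tested genes were called higher and 3.76% lower. Their median log2 fold change was 4.45, against -0.01 over all tested genes. In C, 10 of them were at the floor of 3 fragments per library or below it, and the median was 4.50 once each of these was set to its lower bound. Of the 14 SnRK2 genes, 13 were called higher and 1 lower, with a median of 2.27, and all 9 ABF genes were called higher, with a median of 2.18. Among these 4 ABA lists only the receptors had all members lower under DTT, and as D vs. C chose the lists, nothing is read from it. Other lists of the hormone table also had all tested members lower, among them the 10 PR-1 and the 4 tested A-ARR genes. The AUX1, EIN2, BRI1 and TGA lists had members in both directions.

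The most abundant PP2C gene, TRAES3BF111700080CFD_g, had means of 10.5 ± 1.0, 152 ± 34.1 and 85.1 ± 27.9 scaled FPKM in C, D and T (SD, n = 3). The next, TRAES3BF069100050CFD_g, had 5.06 ± 0.608, 120 ± 34.8 and 72.1 ± 19.6 (SD, n = 3). For both genes every D and T library lay above every C library. The PP2C gene that went the other way, Traes_1AL_087978D78, had 1.85 ± 0.605, 0.748 ± 0.151 and 1.03 ± 0.121 (SD, n = 3). Its call in D vs. C was lost with FPKM as deposited and without control replicate 1 or 2 or D replicate 1 or 2.

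The most abundant SnRK2 genes were Traes_2DL_6CD064E13, with 6.47 ± 0.736, 34.0 ± 5.87 and 29.4 ± 5.92 in C, D and T, and Traes_2BL_B805C339B, with 9.31 ± 1.08, 25 ± 3.96 and 19.2 ± 4.42 (SD, n = 3). Traes_2AS_64E0EF151 was the SnRK2 gene that fell, from 7.44 ± 0.151 to 2.82 ± 0.394 under DTT and 3.33 ± 0.693 under DTT + TUDCA (SD, n = 3). The 2 most abundant ABF genes were Traes_6DL_F7015CE89, with 28.0 ± 4.60, 108 ± 13.1 and 91.0 ± 14.7, and Traes_6DL_E87DBFB1C, with 21.7 ± 0.941, 65.7 ± 11.6 and 46.9 ± 23.5 (SD, n = 3). In T replicate 2 the last of these was at 23.8, just above its C libraries at 21.1 to 22.8, whereas T replicates 1 and 3 were at 70.8 and 46.1.

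In T vs. C, 24 PP2C genes were called up-regulated and 0 down-regulated, with a median log2 fold change of 3.78, where 4.36% of all tested genes were called up-regulated. Of the SnRK2 genes, 10 were called up-regulated and 1 down-regulated, with a median of 1.82. Without T replicate 1, 6 SnRK2 genes were called up-regulated. Of the 9 ABF genes, 7 were called up-regulated, with a median of 1.91, or 1.81 with the 1 gene at the floor in C set to its lower bound. In T vs. D, 4 PP2C genes were called down-regulated, where 0.463% of all tested genes were, and no SnRK2 or ABF gene was called. Those 4 were Traes_3AL_E58742B88, Traes_3DL_71B7E80D2, Traes_5DL_C906A9208 and TRAES3BF051200120CFD_g, named after their values were seen. They fell by 1.89, 1.95, 1.30 and 1.25 on the log2 scale. With single libraries left out, the count ran from 0 (without D replicate 1, D replicate 3, T replicate 2 or T replicate 3) to 10 without D replicate 2 and 12 without T replicate 1. Without T replicate 1, all tested genes called in either direction were 2180, against 852 with all libraries. The median log2 fold changes in T vs. D were -0.80 for PP2C, -0.45 for SnRK2 and -0.26 for ABF genes, against 1.25 for the receptors and -0.02 for all tested genes. All 4 lists were chosen on the same D libraries, the receptors as low and most of the others as high, which favours these signs, so nothing is read from them.

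The summed PP2C level was 50.1 ± 2.42 scaled FPKM in C, 883 ± 263 in D and 527 ± 149 in T (SD, n = 3). The summed receptor level was 2.16 ± 0.204 times the summed PP2C level in C, 0.0157 ± 0.0125 times in D and 0.066 ± 0.0601 times in T (SD, n = 3). In single libraries the ratio was 1.93 to 2.32 in C, 0.00839 to 0.0301 in D and 0.0331, 0.135 and 0.0296 in T replicates 1, 2 and 3. T replicate 3 thus fell within the D range and T replicate 2 was the highest treated library. The ratio compares transcript levels per length of the listed genes only and says nothing of the proteins. The receptors were listed as low in these D libraries and most PP2C genes as high. That choice by itself lowers the ratio in D, so nothing is read from its fall. Within D, replicate 2 had both the highest receptor sum, 18.1, and the lowest PP2C sum, 600. Within T the orders differed, since the PP2C sums were 690, 489 and 400 in replicates 1, 2 and 3 and the receptor sums 22.8, 66.2 and 11.8. The low PP2C sum of T replicate 3 thus came with the lowest, not the highest, receptor sum of the T libraries. The SnRK2 sums were 43.2 ± 0.681, 168 ± 34.1 and 121 ± 20.1, and the ABF sums 70.8 ± 7.73, 279 ± 44.1 and 229 ± 39.0, in C, D and T (SD, n = 3).

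**Figure D5:**
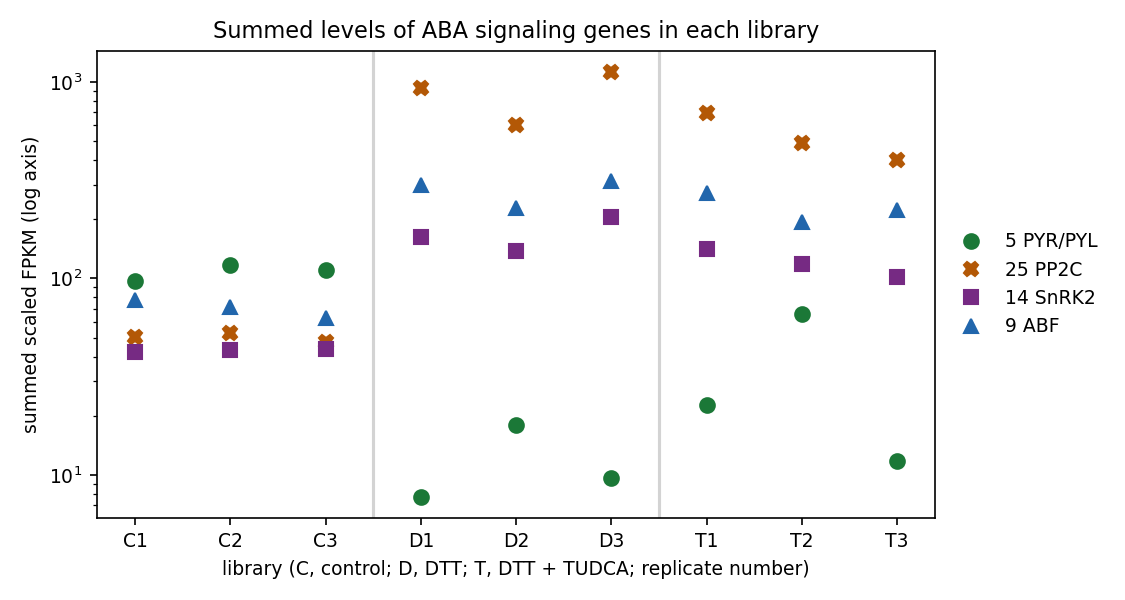
Summed scaled FPKM (log axis) of the 5 PYR/PYL, 25 PP2C, 14 SnRK2 and 9 ABF genes in each of the 9 libraries. The receptor sum is the highest of the 4 sums in all C libraries, at 96.7 to 118, and the lowest in all D and T libraries. All 4 lists were chosen on D vs. C in these libraries, so this order is a description only.

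The pattern of the receptors over the 9 libraries was compared with that of every tested gene with a mean scaled FPKM of at least 1 (54968 genes), by Pearson's r of log2(scaled FPKM + 0.1) with the mean of the 5 centred receptors. The 9 points share the 3 groups and the libraries, so r describes likeness and was not tested. Pairs of receptors had r of 0.964 to 0.991, the highest between the 2BS and 2DS genes and the lowest between the 4AS and 4DL genes. The most alike genes were Traes_4AL_590B5CC39 (r = 0.995), Traes_7DL_D015A546C (0.989), Traes_2AS_4195EE5F5 (0.989), Traes_1BL_A1A6E39BD (0.988) and Traes_5BL_F167D5635 (0.987), which carry no annotation in the files, and 115 genes reached 0.95. Traes_4AL_590B5CC39 measured 9.53 to 12.7 in C and 2.25 to 3.29 in D. Its T libraries were at 4.45, 7.86 and 2.99, the order seen for the receptors, over a narrower range.

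Among the other 92 genes of the hormone table that were compared, 39 had r above 0 and 53 below. These genes were also listed for a change in D vs. C, so the sign of r in part restates that choice. The shares of positive and negative r over all 54968 compared genes were not counted, and nothing is read from the 2 counts. The 3 most alike were A-ARR genes. TRAES3BF042500030CFD_g (r = 0.975) had 8.16 ± 1.16, 1.0 ± 0.511 and 3.11 ± 1.90 scaled FPKM in C, D and T (SD, n = 3), and its T libraries were at 3.15, 4.99 and 1.20. Traes_2AL_A26170C43 and Traes_2BL_BD5F3380A both had r = 0.95, but with T replicate 3 above T replicate 1 (0.976 against 0.533, and 0.507 against 0.288). The most opposed were Novel05921 (r = -0.961), listed as EIN2, a membrane protein of ethylene signaling, and the SnRK2 genes Traes_1AL_E1701918C and Traes_1BL_D20749C1D (both r = -0.96). Traes_1AL_E1701918C had 0.116 ± 0.0481 scaled FPKM in C, 7.06 ± 3.66 in D and 3.11 ± 1.58 in T (SD, n = 3). Its T libraries were at 4.39, 1.35 and 3.58, so replicate 2 was the nearest to C here too.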

How the data were processed

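RNA of 9 leaf samples (3 control, 3 DTT, 3 DTT + TUDCA) was sequenced by the authors, who mapped cleaned paired reads to the wheat genome, counted fragments per gene and deposited FPKM values with no further scaling. The submitters' processing notes name Bowtie2 2.2.3, TopHat2 2.0.12 and HTSeq 0.6.1. The genome release and the treatment of reads that map to several copies are not given in the sources used here. A RefSeq table of 155467 wheat genes held 0 of the identifiers, so names were taken from the study's tables, and no coordinates or sequences are given.

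Libraries were scaled by median ratios over 54436 genes. Genes with a mean scaled FPKM of at least 0.1 (77974) were fitted on log2(scaled FPKM + 0.1) in 1 model of the 3 groups, with limma 3.58.1 in R 4.3.3 and variances that follow the mean. Calls needed P below 0.01, without adjustment, and a log2 fold change of 1 or more in size. Adjustment by Benjamini and Hochberg covered all tested genes. The study's own count-based test was not repeated. The main test used the FPKM values as the unit deposited, and limma-voom on recovered fragments was an alternative. P-values for D vs. C are not given for the receptors. Python 3.11.15 with pandas 2.3.3 and matplotlib 3.10.9 was used for sums and plots.

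Whole fragments per gene were recovered from the FPKM steps for 100% of 91537 genes above 0, within 0.01 fragments, and 99.98% of implied lengths were whole within 0.02 bp. The floor of a group was set at 3 fragments in each library. The fit was also run on simulated fragments with known changes and no library that stood apart, and its outcome is not given here.

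The 5 members and all lists were chosen with earlier results of these data known. Genes named besides them are, in each of PP2C, SnRK2 and ABF, the 2 with the highest mean and any that went against the list in D vs. C, then the 5 most alike over all tested genes and the 3 most and 3 least alike in the hormone table. Whether replicate numbers pair libraries was judged from how deviations from group means correlate across genes. Same-numbered libraries of C and T had r of 0.163, 0.181 and 0.122, and no label names a shared batch. Same-numbered libraries of C and D had -0.0537, -0.0017 and -0.0509, and those of D and T 0.0382, 0.0412 and -0.171. Among C and T libraries, those with unlike numbers had r of -0.161 to 0.0099, below each same-numbered pair. In the other comparisons, libraries with unlike numbers also reached values like those of the same-numbered C and T libraries. T replicate 3 and D replicate 1 had 0.292, T replicate 2 and D replicate 3 had 0.225, and D replicate 1 and C replicate 3 had 0.146. The C and T values therefore do not show that these libraries were paired, and the block is given as an alternative only.

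As alternatives, 0.01 or 1 was added in place of 0.1, the minimum mean was 1 or none, and the others were FPKM as deposited, quantile normalization, the replicate block, only the 2 groups compared, adjusted P-values, limma-voom on the recovered fragments and each library left out.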

Additional observations from a re-analysis of the deposited data

How the results depend on the processing

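Of 797 values recomputed under 20 alternatives, 730 kept their direction and side of the threshold or stayed within the allowed range, and 0 changed direction. Many of these values could not change, so the tally is no measure of stability. The D vs. C value of 2BS, -2.93, was fixed under the replicate block and with any T library left out. Counts of calls have no direction, and a count within 1.5 times the main one was taken as unchanged. In T vs. C all 5 receptors were called under each alternative that left out no single library except with 0.01 added (4AS lost), FPKM as deposited (2BS lost), only the 2 groups compared (2BS lost) and adjusted P-values (3 called). With single libraries left out, 2 to 5 receptors were called in T vs. C and 0 to 5 in T vs. D. Their median log2 fold change ran from -2.82 to -1.44 in T vs. C, from 0.675 to 1.78 in T vs. D and from -4.27 to -3.73 in D vs. C (-2.82 with 1 added). With the replicate block, 3 receptors and 2 SnRK2 genes (down-regulated) were called in T vs. D, against 0 without it. In T vs. C the replicate block kept all 5 receptor calls, with adjusted P-values of 0.0020 to 0.039 in limma. The same block with only C and T libraries, chosen after seeing the data, kept all 5, with adjusted P-values of 0.013 to 0.080. The block changed no other count of receptor, PP2C, SnRK2 or ABF calls by more than 1.5 times.

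The 1 down-regulated PP2C gene of D vs. C became 0 with 1 added and with FPKM as deposited, and 0 to 1 with libraries left out. In T vs. C, 6 SnRK2 genes were called up-regulated and 0 down-regulated with 1 added, and 0 were called down-regulated with FPKM as deposited. With libraries left out, 6 to 10 SnRK2 genes were called up-regulated and 0 to 1 PP2C genes down-regulated. In T vs. D the 4 down-regulated PP2C genes became 0 with 0.01 added, 1 with 1 added, 1 with a minimum mean of 1, 1 with only the 2 groups compared, 0 by adjusted P-values and 0 to 12 with libraries left out, and SnRK2 genes 0 to 1. Over all genes, calls in D vs. C went from 6256 to 3728 with 1 added and in T vs. C from 6145 to 3401. In T vs. D they went from 852 to 363 with 1 added, 454 with a minimum mean of 1, 1 by adjusted P-values and 604 to 2180 with libraries left out. With FPKM as deposited, the median log2 fold change of all genes was 0.22 (D vs. C) or 0.16 (T vs. C). Causes were not tested. Depth limits the 4AS gene most, with 2 to 7 fragments in each D library.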
